A study of Mus musculus with 8 samples.

Results

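The genes of prostaglandin synthesis, breakdown and PGE2 reception examined here were 10, Pla2g4a, Ptgs1, Ptgs2, Ptges, Ptgis, Ptgds, Hpgd, Ptger2, Ptger3 and Ptger4, taken by gene symbol from the 22063 genes of the deposited expression table, and each symbol was found on 1 row. They were measured by RNA sequencing of aorta in 8 libraries of male C57BL/6J mice from a study of aortic dissection. The 4 colchicine libraries came from mice gavaged with colchicine, a drug that binds tubulin and is given against inflammation, at 200 μg per kg per day, and the 4 vehicle libraries from mice given saline. Every mouse, vehicle included, was 3 weeks old at the start and drank beta-aminopropionitrile (BAPN, an inhibitor of the enzyme that crosslinks elastin and collagen) at 1 g per kg per day for 3 weeks, so no library stands for an aorta without BAPN. The labels do not say whether each library came from a separate animal, so p-values measure the spread between these libraries.

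Prostaglandins are short-lived lipid signals. A phospholipase frees arachidonic acid from membranes, a cyclooxygenase turns it into the common precursor PGH2, and terminal synthases make PGE2, prostacyclin, PGD2, PGF2 alpha or thromboxane, each of which acts on G protein-coupled receptors of its own. In arteries prostacyclin relaxes smooth muscle and keeps platelets apart, thromboxane does the opposite, and PGE2 made by the inducible enzymes is a signal of inflamed tissue.

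Total counts, in units of 1e+06, were 16.8 to 18.3 in colchicine libraries and 15.4 to 18.5 in vehicle libraries. Haemoglobin genes took 0.0914% to 0.318% of the counts in colchicine libraries, against 14.9% in vehicle 1, 6.21% in vehicle 4, 0.282% in vehicle 2 and 0.0419% in vehicle 3, so vehicle 1 and vehicle 4 stood apart in their blood content. The same 2 libraries had the highest share of mitochondrial counts, with 4.40% to 4.87% in colchicine libraries, against 10.4% in vehicle 1, 7.21% in vehicle 4, 2.26% in vehicle 2 and 3.48% in vehicle 3. Of the cell marker lists, 5 of 6 tested erythroid genes, 3 of 3 neutrophil genes, 4 of 5 platelet genes and 5 of 6 macrophage genes were lowered with colchicine. The low-count filter left out Cxcr2, Mmp8 and Ly6g of the 6 listed neutrophil genes. S100a8 and S100a9, at 0.227 to 1.32 CPM in colchicine libraries, met that filter through the vehicle libraries. Over all tested genes, 17.0% were lowered and 17.4% raised. In the other lists, 1 of 5 mast cell, 1 of 3 T and B cell and 2 of 5 endothelial genes were lowered. Among fibroblast (5 tested), adipocyte (5 tested) and mesothelial genes (4 tested), 0 were raised or lowered. The smooth muscle markers that define the tissue were abundant in both groups, with a summed level of 22992 to 31537 CPM in colchicine and 6234 to 21457 CPM in vehicle libraries, and 2 of 6 (Myh11 and Lmod1) were raised. CPM denotes counts per 1e+06 counts of the TMM-scaled library. In bulk tissue, fewer cells of a type and less RNA per cell cannot be told apart.

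Of the 9 tested genes, 5 changed, in both directions. Pla2g4a and Ptgis, the arachidonic acid-releasing phospholipase and the prostacyclin synthase, were raised with colchicine by 1.89-fold and 1.72-fold, while Ptgs2, Ptges and Ptger2, which are the inducible cyclooxygenase, the inducible PGE2 synthase and the EP2 receptor, were lowered by 2.46, 1.94 and 3.13 on the log2 scale. Ptgs1, Hpgd, Ptger3 and Ptger4 did not pass the test, and Ptgds was too low to be tested. Ptgs2 stood at -0.28 (adjusted p = 0.558, edgeR) without vehicle 1 and vehicle 4, and the calls of Pla2g4a and Ptgis were lost in 7 and 13 of 21 other analyses. By edgeR's quasi-likelihood test with Benjamini-Hochberg adjustment over all genes and a threshold of 0.05, 5 of the 9 tested members were called, 2 raised and 3 lowered, where 34.4% of all 13431 tested genes were called (17.4% raised and 17.0% lowered). On log2(TPM + 1) the split over all called genes was 2347 raised and 863 lowered, against 2342 and 2277 here. The members' median log2 change was -0.13, against -0.03 over all tested genes. In 3 of the 9 (Ptges, Ptgis and Ptger2) the groups did not overlap in CPM, a share close to the 39.0% of all tested genes (21.1% with colchicine higher and 17.9% with colchicine lower).

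**Figure D1:**
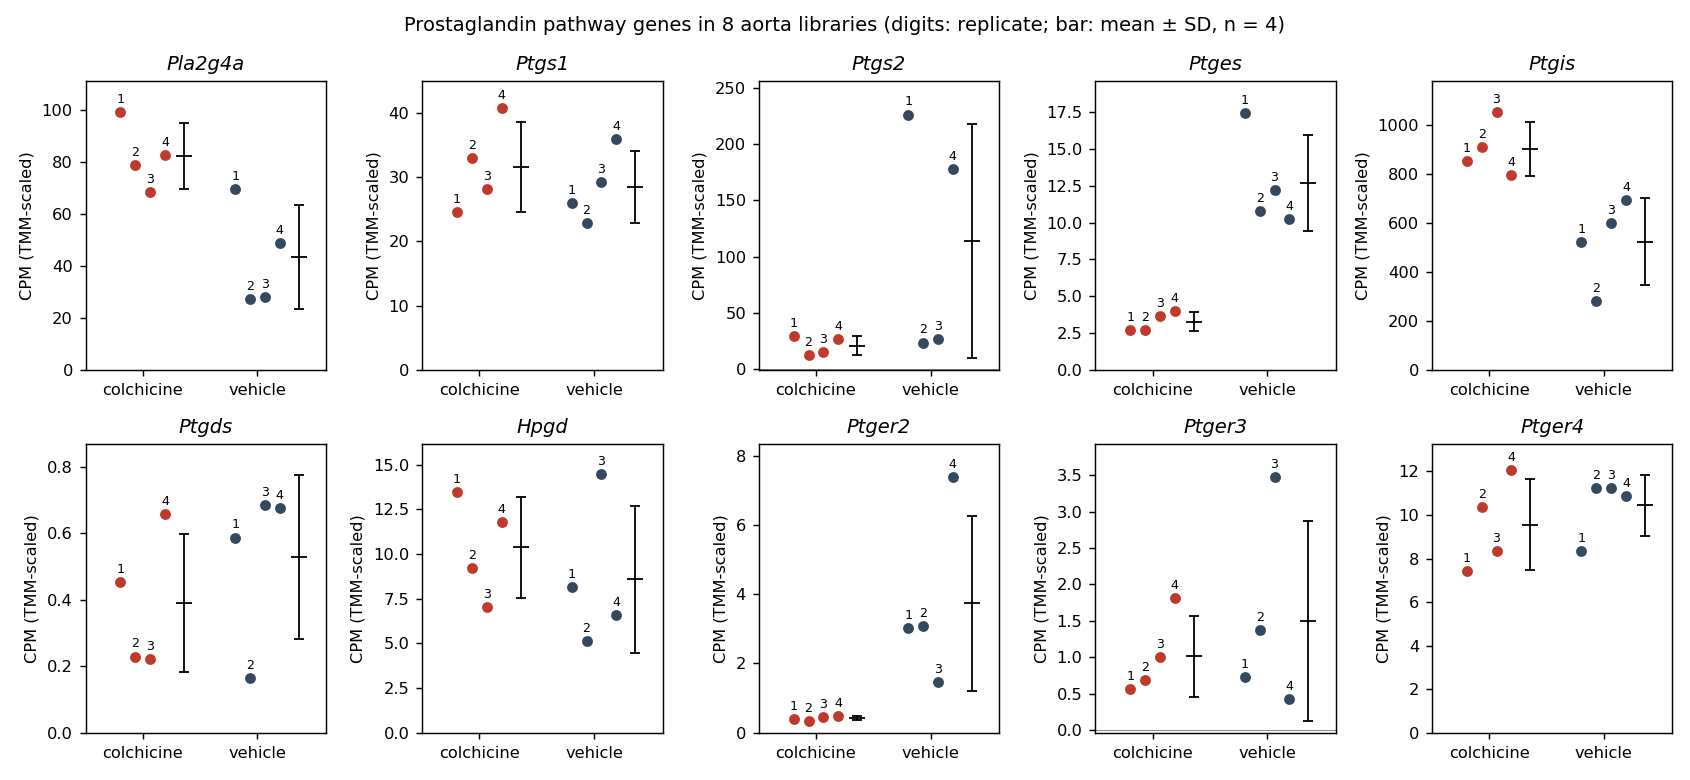
Level of each of the 10 genes in CPM (TMM-scaled, linear axes) in the 4 colchicine and the 4 vehicle libraries, where each point is a library labelled with its replicate number and the bar is the mean ± SD. Ptges, Ptgis and Ptger2 show no overlap between the groups, whereas Ptgs2 is high in vehicle 1 and vehicle 4 alone (227 and 178 CPM).

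Per unit of transcript length, Ptgis was by far the most abundant of the 10 genes in either group. The TPM level of Ptgis averaged 1037 ± 77.1 in colchicine and 456 ± 219 in vehicle libraries (SD, n = 4 each). In colchicine libraries Pla2g4a (65.4 ± 12.2 TPM) and Ptgs1 (24.9 ± 6.12 TPM) came next, with no overlap between neighbours in that order, then Hpgd (14.04 TPM) and Ptgs2 (10.6 TPM), whose ranges overlapped. In vehicle libraries the order below Ptgis was Ptgs2 (36.1 ± 28.6 TPM), Pla2g4a (24.0 ± 4.16 TPM) and Ptgs1 (17.6 ± 6.40 TPM), and each of these overlapped the next. Ptges, Ptger4, Ptger2, Ptger3 and Ptgds had mean TPM levels of 0.257 to 6.58 in colchicine and 1.14 to 5.84 in vehicle libraries, with Ptger2 the lowest of the 10 in colchicine libraries.

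Pla2g4a encodes cytosolic phospholipase A2, the calcium-activated enzyme that frees arachidonic acid for prostaglandin synthesis. Its level was 99.2, 78.8, 68.5 and 82.7 CPM in colchicine 1 to 4, against 69.7, 27.4, 28.0 and 48.9 CPM in vehicle 1 to 4. All but 1 of the vehicle libraries lay below every colchicine library, the exception being vehicle 1, which stood just above colchicine 3. The log2 change was 0.92 ± 0.30 (SE, adjusted p = 0.0421, edgeR). On the TPM scale the groups did not overlap, at 80.7, 61.1, 51.7 and 68.0 TPM in colchicine and 24.1, 20.1, 22.2 and 29.8 TPM in vehicle libraries. That scale moved other genes too, with a median change over all genes of 0.35 on log2(TPM + 1), against -0.03 in the edgeR fit. Vehicle 1, at 69.7 CPM and 24.1 TPM, had 14.9% of its counts in haemoglobin genes. Without vehicle 1 and vehicle 4, the 2 libraries rich in haemoglobin, the change of Pla2g4a was 1.58 (adjusted p = 0.00468, edgeR). The call was lost on leaving out any 1 library other than vehicle 1 (adjusted p = 0.0508 to 0.113, changes of 0.72 to 1.01).

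The 2 cyclooxygenases differed. Ptgs1, the constitutive form that also serves platelets, had 24.5, 32.9, 28.1 and 40.7 CPM in colchicine 1 to 4 and 26.0, 22.8, 29.2 and 35.9 CPM in vehicle 1 to 4. The groups overlapped and the change was 0.15 ± 0.20 (SE, adjusted p = 0.572, edgeR). Exons of Gm43621 overlap Ptgs1 on the other strand. Ptgs2, the form that inflammatory signals induce, had 29.2, 11.9, 15.0 and 26.7 CPM in colchicine 1 to 4, against 227, 23.4, 26.9 and 178 CPM in vehicle 1 to 4. Vehicle 2 and vehicle 3 lay within the range of the colchicine libraries, and only vehicle 1 and vehicle 4 lay above it. The log2 change of Ptgs2 over all 8 libraries was -2.46 ± 0.75 (SE, adjusted p = 0.0337, edgeR). Without vehicle 1 and vehicle 4 it was -0.28 (adjusted p = 0.558), and with the erythroid level as a covariate -0.90 (adjusted p = 0.211). Ptgs2 did not pass with limma-voom either (-1.89, adjusted p = 0.0935).

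The neutrophil, platelet and erythroid marker sums were, as Ptgs2 was, highest in vehicle 1 and vehicle 4. In vehicle 2 and vehicle 3 the neutrophil, platelet and macrophage sums were above the colchicine range, where Ptgs2 was within it. The summed level of the 6 neutrophil markers was 2.05 to 3.73 CPM in colchicine libraries, against 2710 and 710 CPM in vehicle 1 and vehicle 4 and 19.5 and 12.99 CPM in vehicle 2 and vehicle 3. The 5 platelet markers summed to 27.8 to 34.7 CPM in colchicine libraries, against 785 and 717 CPM in vehicle 1 and vehicle 4 and 95.3 and 51.6 CPM in vehicle 2 and vehicle 3. The 6 erythroid markers summed to 882 to 3098 CPM in colchicine libraries, against 197470 and 59488 CPM in vehicle 1 and vehicle 4 and 2876 and 389 CPM in vehicle 2 and vehicle 3. The 6 macrophage markers summed to 369 to 740 CPM in colchicine and 1270 to 3448 CPM in vehicle libraries, highest in vehicle 2 and vehicle 1. No marker of these lists was at 0 in every library, and the part of these cells, or of the mitochondrial share given above, in the level of Ptgs2 was not tested.

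**Figure D2:**
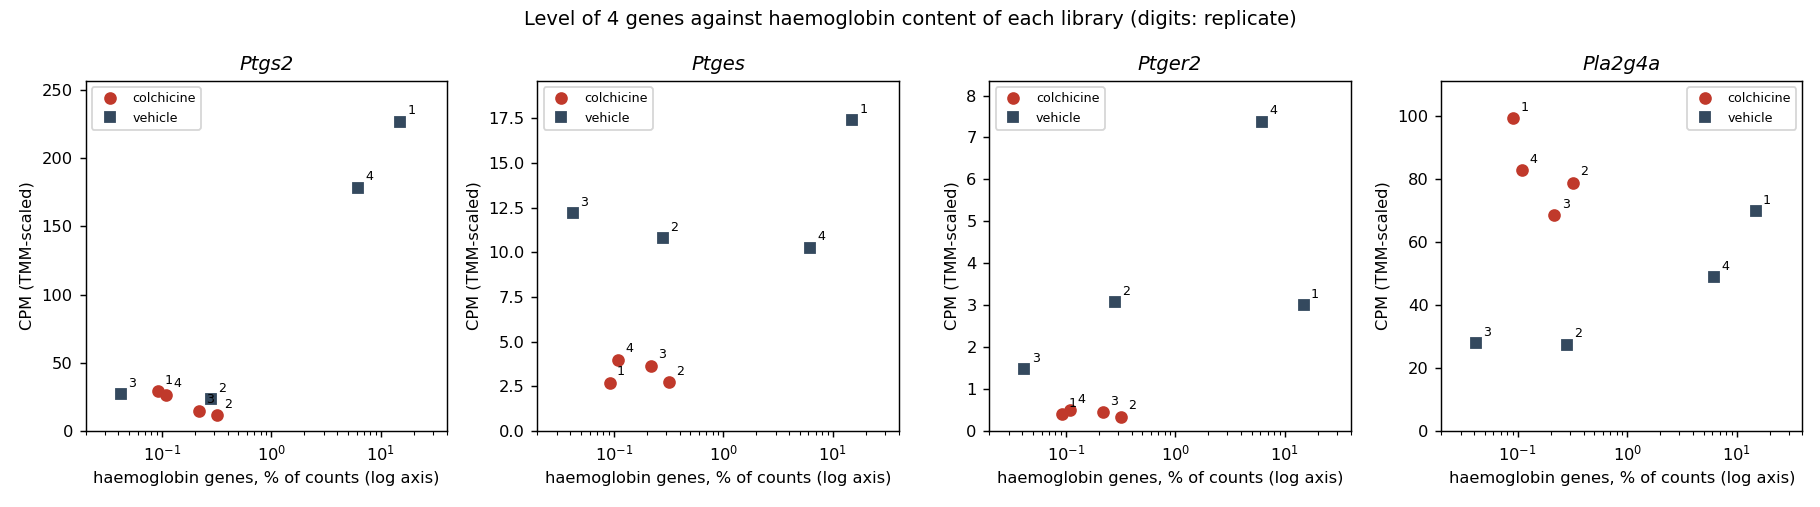
Level of Ptgs2, Ptges, Ptger2 and Pla2g4a (CPM, linear axis) in each library against the percent of its counts in haemoglobin genes (log axis), with colchicine libraries as circles and vehicle libraries as squares, labelled by replicate. Ptgs2 is high in the 2 libraries with 14.9% and 6.21% haemoglobin counts, while Ptges is higher in all 4 vehicle libraries than in any colchicine library.

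Ptges encodes the inducible microsomal PGE2 synthase, the partner of Ptgs2 in inflamed tissue. It had 2.72, 2.75, 3.66 and 3.999 CPM in colchicine 1 to 4, against 17.4, 10.8, 12.2 and 10.3 CPM in vehicle 1 to 4. Every vehicle library was above every colchicine library, and vehicle 2 and vehicle 3, in contrast to what was seen for Ptgs2, were as high as vehicle 4. The log2 change was -1.94 ± 0.24 (SE, adjusted p = 0.00388, edgeR), a 3.85-fold lower level with colchicine. Ptges passed in all 21 other analyses, with changes of -2.07 to -1.16, and stood at -1.80 without vehicle 1 and vehicle 4 (adjusted p = 0.00577). The summed levels of the macrophage, neutrophil and platelet markers were also higher in every vehicle library than in any colchicine library. Of the macrophage markers, 5 of 6 were called lower with colchicine and Adgre1 was not called (adjusted p = 0.0562, edgeR). The part of any of these cells in the level of Ptges and of Ptger2 was not tested.

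Ptgis encodes prostacyclin synthase, the enzyme of smooth muscle and endothelium that makes the vessel wall's main relaxing prostanoid. Its level was 852, 911, 1053 and 797 CPM in colchicine 1 to 4, against 522, 281, 599 and 696 CPM in vehicle 1 to 4. The lowest colchicine library was above the highest vehicle library. The change of 0.78 ± 0.27 (SE) lay at the threshold (adjusted p = 0.0498, edgeR) and ended above it in 13 of 21 other analyses (adjusted p of up to 0.133), though its direction was the same in all 21. It passed with DESeq2 (0.78, adjusted p = 0.0186), with limma-voom (0.85, adjusted p = 0.0469) and without vehicle 1 and vehicle 4 (1.04, adjusted p = 0.0322). Exons of Ptgis overlap those of 1110018N20Rik on the other strand, and reads of the 2 cannot be told apart where counting took no account of strand, which is not stated. Of the 6 smooth muscle markers, 2 were raised (Myh11 and Lmod1) and 4 did not pass. Of the 5 endothelial markers, Pecam1 and Vwf were raised (0.95 and 1.18), Kdr and Cdh5 were lowered (-2.82 and -0.83) and 1 did not pass, with a summed level of 1596 to 2363 CPM in colchicine and 964 to 1479 CPM in vehicle libraries. The part of either cell type in the level of Ptgis was not tested.

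Ptgds, the lipocalin-type PGD2 synthase, had 8, 4, 4 and 12 counts in colchicine 1 to 4 and 8, 3, 13 and 11 counts in vehicle 1 to 4, and the low-count filter left it out. At this depth no difference was detectable. Hpgd, the dehydrogenase that inactivates prostaglandins, had 13.5, 9.24, 7.05 and 11.8 CPM in colchicine 1 to 4, against 8.15, 5.16, 14.5 and 6.58 CPM in vehicle 1 to 4. The highest and the lowest library were both vehicle libraries, and the change was 0.27 ± 0.34 (SE, adjusted p = 0.546, edgeR).

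Pla2g4a and Ptgs2, one raised and one lowered, are neighbours on mouse chromosome 1. By the GENCODE M21 annotation (GRCm38, also called mm10), Pla2g4a lies on the minus strand at chr1:149829618-149961290 and Ptgs2 on the plus strand at chr1:150100031-150108227, with their starts 139 kb apart. Ptges lies on the minus strand at chr2:30889471-30929863, its RefSeq start falling inside that span, and 4 of the 10 members (Ptgs1, Ptges, Ptgis and Ptgds) are on chromosome 2. The RefSeq promoter windows (GRCm38.p6, 250 bases before to 50 after the start) of Pla2g4a, Ptgs2 and Ptges are shown. These genes encode enzymes of the first 3 steps on the way to PGE2. Pla2g4a was called raised, and Ptgs2 and Ptges lowered. Ptgs1, the other cyclooxygenase, was not called (0.15, adjusted p = 0.572, edgeR). Ptgs2 stood at -0.28 without vehicle 1 and vehicle 4 (adjusted p = 0.558, edgeR). The Pla2g4a call was lost in 7 of 21 other analyses. Capitals mark matches, on either strand, to the TATA box (TATAAA), the cyclic AMP response element (TGACGTCA) and its half-site (TGACG), the E-box (CACGTG), the NF-kB motif (GGG and CC with any 5 bases between), the C/EBP motif (TTNNGNAA) and the AP-1 motif (TGANTCA).
Pla2g4a, chr1:149961241-149961540, minus strand: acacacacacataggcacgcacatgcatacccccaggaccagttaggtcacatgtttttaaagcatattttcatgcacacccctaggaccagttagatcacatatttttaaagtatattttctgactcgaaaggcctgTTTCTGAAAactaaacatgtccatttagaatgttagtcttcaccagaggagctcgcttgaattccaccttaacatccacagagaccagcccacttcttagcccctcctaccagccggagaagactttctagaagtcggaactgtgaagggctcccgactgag
Ptgs2, chr1:150099781-150100080, plus strand: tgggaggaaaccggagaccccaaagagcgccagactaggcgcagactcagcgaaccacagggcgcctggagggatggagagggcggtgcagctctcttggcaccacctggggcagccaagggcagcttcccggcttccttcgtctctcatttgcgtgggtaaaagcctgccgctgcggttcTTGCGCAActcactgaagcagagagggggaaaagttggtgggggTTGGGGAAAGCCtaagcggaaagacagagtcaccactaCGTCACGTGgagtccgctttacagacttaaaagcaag
Ptges, chr2:30903248-30903547, minus strand: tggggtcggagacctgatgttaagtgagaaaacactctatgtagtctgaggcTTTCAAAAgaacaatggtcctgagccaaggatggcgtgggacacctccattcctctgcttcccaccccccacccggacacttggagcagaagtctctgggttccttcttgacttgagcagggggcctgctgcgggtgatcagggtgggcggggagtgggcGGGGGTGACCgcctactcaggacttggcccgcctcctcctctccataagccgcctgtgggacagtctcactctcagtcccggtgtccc
The Ptgs2 window held the half-site and the E-box, which overlap each other just after the start, and C/EBP letters at 69 and 25 bases before it, the nearer of which overlap an NF-kB match. The Ptges window held 1 NF-kB and 1 C/EBP match, and the Pla2g4a window held overlapping C/EBP matches. Over the 32851 windows of the table, 50.8% held the NF-kB letters, 40.7% the C/EBP letters, 20.8% the half-site, 7.15% the E-box, 13.6% the TATA letters, 7.81% the AP-1 letters and 1.79% the full cyclic AMP response element. Windows were found for 9 of the 10 members. The window of Ptgis is not shown.

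The 3 members that encode receptors bind PGE2. Ptger2 and Ptger4 (EP2 and EP4) raise cyclic AMP, and Ptger3 (EP3) mostly lowers it. Ptger2 had 7, 6, 8 and 9 counts in colchicine 1 to 4, against 41, 56, 28 and 120 counts in vehicle 1 to 4, which is 0.396, 0.344, 0.444 and 0.493 CPM against 3.01, 3.07, 1.47 and 7.38 CPM. The colchicine libraries lay close together, and all of them were below the lowest vehicle library, vehicle 3. The log2 change was -3.13 ± 0.51 (SE, adjusted p = 0.00556, edgeR). It passed in all 21 other analyses and was -2.41 without vehicle 1 and vehicle 4 (adjusted p = 0.00828). Being so low in colchicine libraries, Ptger2 met the low-count and TPM filters only through the vehicle libraries. With no low-count filter the change of Ptger2 was -3.11 (adjusted p = 0.00549, edgeR). On log2(TPM + 1), a scale that understates the change of a low gene, it was -1.02. Exons of 2 predicted genes (Gm17173 and Gm49364) overlap Ptger2 on the other strand.

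Ptger4, which had 7.42, 10.4, 8.32 and 12.1 CPM in colchicine 1 to 4 and 8.37, 11.2, 11.3 and 10.9 CPM in vehicle 1 to 4, was the most abundant of the 3 receptors in either group. Its groups overlapped, and the change was -0.13 ± 0.20 (SE, adjusted p = 0.629, edgeR). Exons of Gm15937 and Ttc33 overlap Ptger4 on the other strand, and Ttc33 had 14.5 to 21.7 CPM over the libraries. Reads of these genes cannot be told apart where counting took no account of strand, which is not stated. Ptger3 had 0.566, 0.689, 0.999 and 1.81 CPM in colchicine 1 to 4, against 0.734, 1.37, 3.47 and 0.430 CPM in vehicle 1 to 4. The vehicle libraries spanned the colchicine range on both sides, and the change was -0.58 ± 0.65 (SE, adjusted p = 0.503, edgeR). Neither direction held throughout, since Ptger3 stood at 0.23 without vehicle 3 and Ptger4 at 0.22 on log2(TPM + 1).

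Of 30 other genes of the prostanoid pathway in the table, 21 were tested, 1 was raised (Ptgfr) and 6 were lowered (Tbxas1, Ptger1, Abcc4, Prxl2b, Ptgir and Ptges2), where 34.4% of all tested genes were called (17.4% raised and 17.0% lowered), so the number called is near the background. Their median log2 change was -0.34, against -0.03 over all genes. Tbxas1, thromboxane synthase, an enzyme of platelets and macrophages, had 4.02, 1.72, 2.77 and 5.37 CPM in colchicine 1 to 4, against 19.2, 20.4, 9.26 and 20.1 CPM in vehicle 1 to 4. The groups did not overlap, and the change was -2.31 ± 0.38 (SE, adjusted p = 0.00569, edgeR). The platelet and macrophage marker sums given above were also higher in every vehicle library than in any colchicine library. In vehicle 1 to 4 the platelet sums were 785, 95.3, 51.6 and 717 CPM, and the macrophage sums 3002, 3448, 1270 and 1759 CPM. The part of platelets or macrophages in the level of Tbxas1 was not tested. Tbxa2r, the thromboxane receptor of smooth muscle and platelets, had 20.6 ± 2.45 CPM in colchicine and 15.7 ± 3.38 CPM in vehicle libraries (SD, n = 4 each) and did not pass (0.39 ± 0.18, SE, adjusted p = 0.119, edgeR). The other PGE2 synthases were Ptges2, at -0.58 ± 0.15 (SE, adjusted p = 0.0202, edgeR), and Ptges3, at -0.10 ± 0.29 (SE, adjusted p = 0.797, edgeR). Ptges3 was higher with colchicine without vehicle 1 and vehicle 4 (0.45, adjusted p = 0.0321), and Ptges2 did not pass there (-0.37, adjusted p = 0.0505) or on log2(TPM + 1) (-0.09, adjusted p = 0.796). Abcc4, a transporter that exports prostaglandins, changed by -1.25 ± 0.30 (SE, adjusted p = 0.0154, edgeR) and did not pass on log2(TPM + 1) (-0.61, adjusted p = 0.169) or log2(TPM + 0.1) (-0.73, adjusted p = 0.176). Hpgds, the haematopoietic PGD2 synthase, had 1.46 ± 0.353 CPM in colchicine and 2.19 ± 1.33 CPM in vehicle libraries and did not pass (-0.59 ± 0.45, SE, adjusted p = 0.32, edgeR), though it did without vehicle 1 and vehicle 4 (-1.08, adjusted p = 0.0497). Prxl2b, a prostamide and PGF2 alpha synthase named here after its value was seen, changed by -1.13 ± 0.26 (SE, adjusted p = 0.0127, edgeR) and did not pass on log2(TPM + 1) (-0.66, adjusted p = 0.212) or log2(TPM + 0.1) (-0.70, adjusted p = 0.216).

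Over the whole family of 9 prostanoid receptor genes, 7 were tested, with 1 raised, 3 lowered and 3 not called, where 34.4% of all tested genes were called. Ptgfr, the PGF2 alpha receptor that contracts smooth muscle, had 17.0, 15.0, 15.8 and 12.3 CPM in colchicine 1 to 4, against 2.57, 4.44, 5.31 and 3.995 CPM in vehicle 1 to 4. The groups were far apart, and the change of 1.87 ± 0.24 (SE, adjusted p = 0.00402, edgeR) passed in all 21 other analyses. Ptgir, the prostacyclin receptor, moved opposite to its ligand's synthase, with 2.44, 2.47, 2.50 and 3.56 CPM in colchicine 1 to 4, against 5.58, 5.32, 3.84 and 4.79 CPM in vehicle 1 to 4. Its groups did not overlap either, but the change of -0.83 ± 0.23 (SE, adjusted p = 0.0257, edgeR) was lost without vehicle 1 and vehicle 4 (-0.73, adjusted p = 0.0681) and on log2(TPM + 1) (-0.28, adjusted p = 0.398). Ptger1, the calcium-mobilising EP1 receptor, had 1.35 ± 0.692 CPM in colchicine and 3.67 ± 1.02 CPM in vehicle libraries (SD, n = 4 each) and changed by -1.43 ± 0.39 (SE, adjusted p = 0.0228, edgeR). Its estimated counts were not whole in any library, so its level is uncertain, and it did not pass without vehicle 1 and vehicle 4 (-1.14, adjusted p = 0.0872). Ptgdr had 0 counts and Ptgdr2 had 7 counts over the 8 libraries, where 3 counts correspond to 0.158 to 0.220 CPM in a library.

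**Figure D3:**
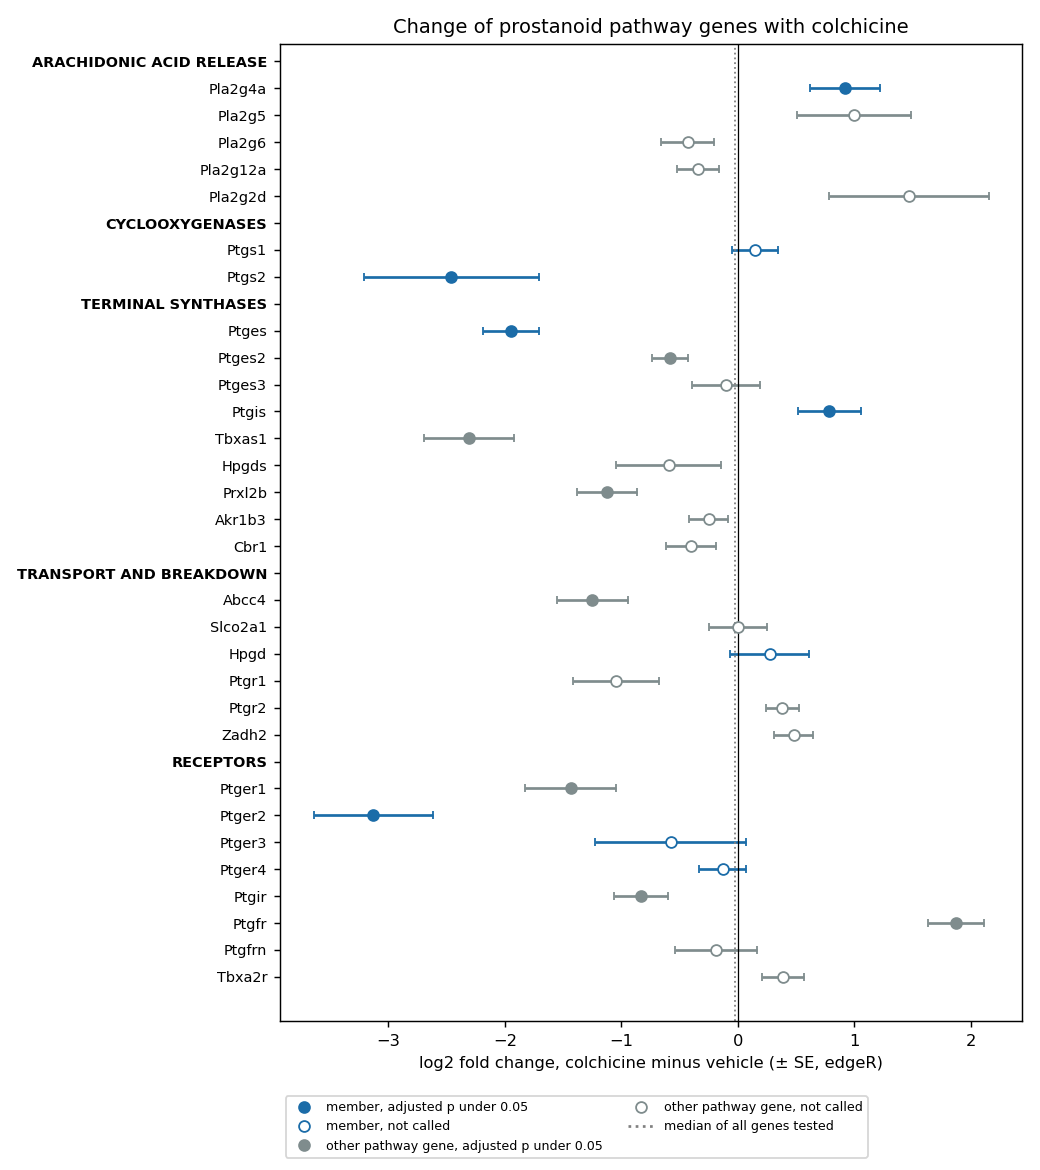
Log2 fold change (colchicine minus vehicle, ± SE, edgeR) of the 9 tested members (blue) and 21 other tested pathway genes (grey), ordered by their step in the pathway, with filled points for an adjusted p under 0.05 and a dotted line at the median of all genes tested. Ptgs2, Ptges, Tbxas1 and Ptger2 lie furthest to the left and Ptgfr furthest to the right among the called genes.

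The leukotriene and lipoxygenase list, mostly of another branch of arachidonic acid metabolism, also held Cyp2j6, Cyp2j9, Ephx2, Fpr2 and Cmklr1. It had 16 tested genes with 1 raised and 7 lowered, where 17.4% of all tested genes were raised and 17.0% lowered. The median log2 change of the list was -0.90, against -0.03 over all genes. Alox5ap, the protein that hands arachidonic acid to 5-lipoxygenase, had 16.0, 14.3, 13.4 and 23.5 CPM in colchicine 1 to 4, against 267, 94.5, 42.4 and 125 CPM in vehicle 1 to 4. It changed by -2.97 ± 0.51 (SE, adjusted p = 0.00601, edgeR), and all 4 vehicle libraries were above the colchicine libraries. Alox5, the lipoxygenase itself, had 6.24 ± 1.29 CPM in colchicine and 10.1 ± 4.02 CPM in vehicle libraries (SD, n = 4 each) and did not pass (-0.69 ± 0.31, SE, adjusted p = 0.109, edgeR). Ltb4r1, the leukotriene B4 receptor of neutrophils, had 0.277 to 0.657 CPM in colchicine libraries, against 66.3, 3.02, 1.16 and 20.2 CPM in vehicle 1 to 4 (adjusted p = 0.0114, edgeR). Cyp4f18, which inactivates leukotriene B4, and Fpr2, a formyl peptide and lipoxin receptor, also had their highest levels in vehicle 1 and vehicle 4 (82.4 and 32.3 CPM, and 35.8 and 22.6 CPM), against 0.344 to 1.92 CPM and 0 to 1.47 CPM in colchicine libraries (adjusted p = 0.00748 and 0.0266, edgeR). In vehicle 2 and vehicle 3 Cyp4f18 had 12.4 and 4.84 CPM, above every colchicine library, and Fpr2 had 1.81 and 0.736 CPM. The neutrophil markers given above were highest in vehicle 1 and vehicle 4, and their part was not tested. Fpr2, whose exons overlap those of Fpr3 on the same strand, did not pass without vehicle 1 and vehicle 4 (-1.52, adjusted p = 0.334), and neither Ltb4r1 nor Fpr2 passed with limma-voom. Cyp4f18 and Ltb4r1 did pass without vehicle 1 and vehicle 4 (-3.01 and -2.39, adjusted p = 0.0119 and 0.0149, edgeR). Dpep1, a dipeptidase that converts leukotriene D4, was the gene that rose, by 1.19 ± 0.28 (SE, adjusted p = 0.0143, edgeR), to 89.3 ± 25.6 CPM in colchicine, against 39.3 ± 13.3 CPM in vehicle libraries (SD, n = 4 each).

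Ratios of genes within a library were set for 4 pairs, as log2((TPM + 0.1)/(TPM + 0.1)), and depend in part on the pseudocount. The Ptges to Ptgis ratio was -9.13, -9.17, -8.99 and -8.49 in colchicine 1 to 4, against -5.67, -5.55, -6.48 and -6.91 in vehicle 1 to 4. The PGE2 synthase was thus lower relative to the prostacyclin synthase in every colchicine library, with a difference of -2.79 (-2.48 with a pseudocount of 1 and -2.83 with 0.01). The Hpgd to Ptges ratio was 3.35, 2.79, 2.01 and 2.63 in colchicine 1 to 4, against 0.02, 0.05, 1.35 and 0.47 in vehicle 1 to 4, again with no overlap and a difference of 2.22. Each had a two-sided exact permutation p of 0.0286, the smallest that 70 ways of dividing the libraries can give, and an adjusted p of 0.0571 over the 4 ratios, so neither passed the threshold after correction. With this few libraries that adjusted p could be lower only if a further ratio also reached the smallest p, so the failure to pass says little about either ratio. The Ptgs2 to Ptgs1 ratio averaged -1.31 ± 0.71 in colchicine and 0.70 ± 1.62 in vehicle libraries (SD, n = 4 each, exact permutation p = 0.0857, adjusted p = 0.114), with vehicle 2 and vehicle 3 inside the colchicine range. The Ptger4 to Ptger3 ratio averaged 2.61 ± 0.50 in colchicine and 2.46 ± 1.10 in vehicle libraries (SD, n = 4 each, exact permutation p = 0.8286 before and after adjustment).

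**Figure D4:**
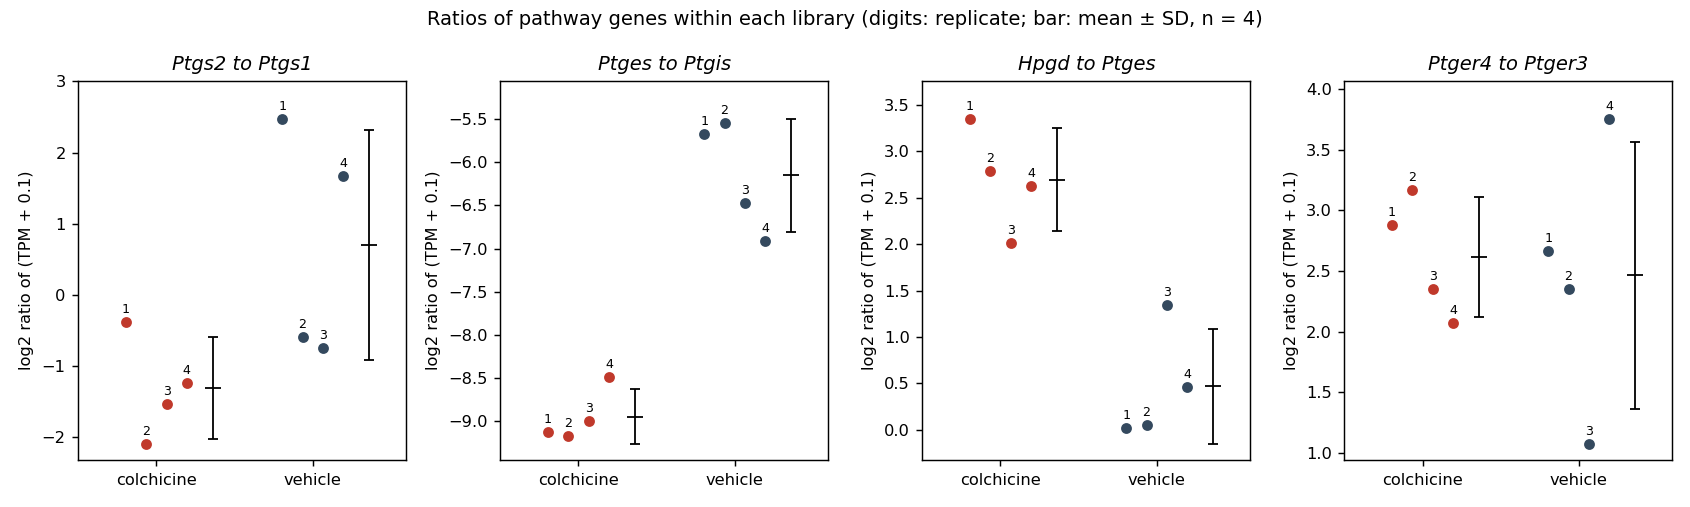
Log2 ratio of (TPM + 0.1) for 4 pairs of genes within each of the 4 colchicine and 4 vehicle libraries (points, labelled by replicate), with the mean ± SD as a bar. Ptges to Ptgis lies between -9.17 and -8.49 in colchicine and between -6.91 and -5.55 in vehicle libraries, while Ptgs2 to Ptgs1 and Ptger4 to Ptger3 overlap.

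Across 21 other analyses of each called member, Ptges and Ptger2 passed in each one, and Pla2g4a, Ptgis and Ptgs2 kept their direction but passed in 14, 8 and 10 of 21. Ptger2 met the low-count and TPM filters only through the vehicle libraries. Without vehicle 1 and vehicle 4, Pla2g4a and Ptgis were raised and Ptges and Ptger2 lowered, which is 4 members, where 40.5% of 13746 tested genes were called (20.2% raised and 20.3% lowered).

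**Figure D5:**
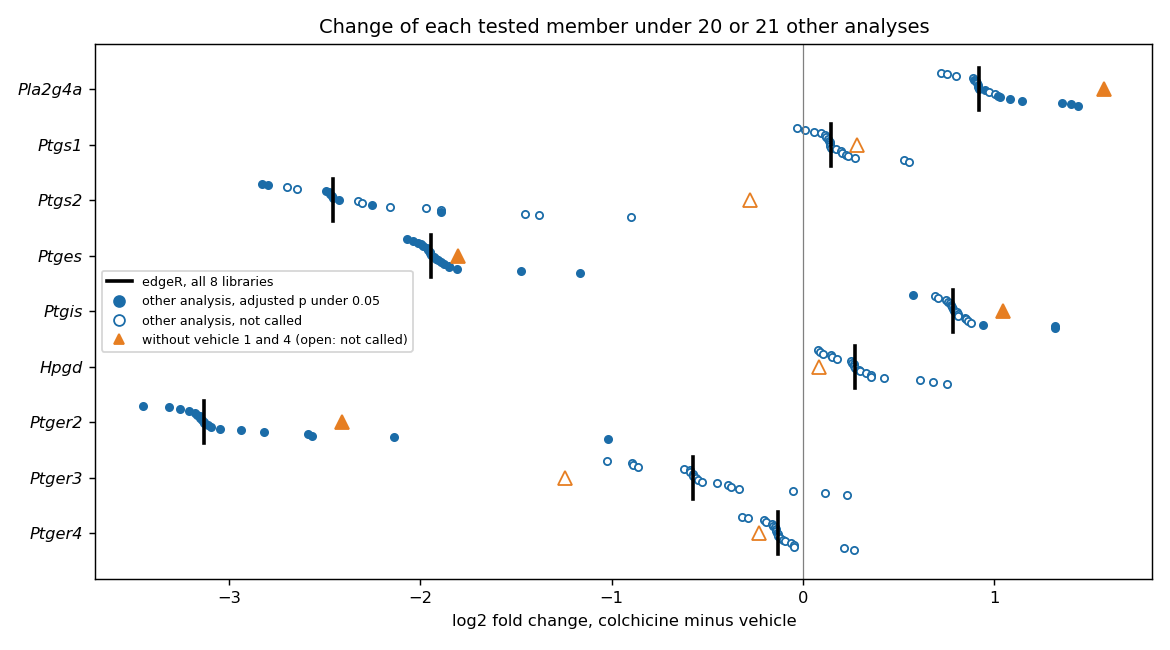
Log2 fold change (colchicine minus vehicle) of the 9 tested members over all 8 libraries by edgeR (black line), in each other analysis (circles, filled for an adjusted p under 0.05) and without vehicle 1 and vehicle 4 (triangles, open where not called). Ptges stays between -2.07 and -1.16, and the open triangle of Ptgs2 lies at -0.28.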

How the data were processed

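RNA of mouse aorta was isolated with a column kit and sequenced from SMARTer mRNA libraries, per the labels' protocols. The submitters' processing notes name the build mm10. The aligner, counter, annotation and strand setting are not named in the sources used here. The deposited table gives, per the file headers, an estimated count (8.7% of values not whole) and a TPM value for each gene in each library. The unit was missing from the header of the vehicle 3 TPM column, which summed to 1e+06 like every other. Rows lacking a symbol (30, with 5.89e-05% of counts) were not tested. TPM values share 1 total per library, so a large haemoglobin share lowers all others there.

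Counts were rounded to whole numbers and tested with edgeR 4.0.16 (R 4.3.3): filterByExpr, TMM factors (0.762 in vehicle 1, 0.987 to 1.08 in the others), quasi-likelihood test of colchicine against vehicle, two-sided, no covariate, Benjamini-Hochberg over 13431 genes, threshold 0.05. SE was taken as |log2 change| over the root of the F statistic. Functions were tested on simulated data. Other analyses used DESeq2 1.42.0, limma 3.58.1 (voom, and trend on log2 TPM with a pseudocount of 1 or 0.1 and a mean of at least 1 TPM in either group), other scalings, filters and thresholds, the erythroid level as a covariate, the replicate number as a block and libraries left out. No pair of libraries agreed within counting noise.

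All 10 members were named, and of the other pathway lists up to 3 raised and 3 lowered genes with the largest change, plus 9 fixed genes. The members and lists were chosen with earlier results of these data known. Positions came from GENCODE M21 and promoters from RefSeq. The floor of 3 counts covers counting error only.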

Additional observations from a re-analysis of the deposited data

Results flagged for a closer look

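Ptger4 in vehicle 1 stood apart from the other vehicle libraries, at 8.37 CPM, where vehicle 2 to 4 had 10.9 to 11.3 CPM. Its gap to the nearest of them, set against the range of the group, was above Dixon's 95% critical value for 4 samples. This was the only such value among 28 groups checked (10 genes and 4 ratios in 2 groups each), and chance gives about 1 in 20. Vehicle 1 is also the library with the most haemoglobin counts (14.9%) and the lowest TMM factor (0.762).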

How the results depend on the processing

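Of the members, 3 were lowered with all 8 libraries and 2 or 3 in every alternative. The 2 raised members became 1 with RLE factors, no factors, scaling without haemoglobin and mitochondrial genes, no low-count filter, a filter of CPM of 1 in 4 libraries, the replicate block or the erythroid covariate, 0 at a threshold of 0.01, and 0 to 1 with 1 library left out. All genes called numbered 4619, against 2207 to 5058 with 1 library left out, 3001 on log2(TPM + 0.1), 2305 with the replicate block and 1404 at 0.01. Without colchicine 1, 2 or 4 they numbered 2377, 2207 and 2922. The other prostanoid genes had 1 raised, against 2 with DESeq2, on either TPM scale or without vehicle 1 and 4, 3 at a threshold of 0.1 and 1 to 2 with 1 library left out. Their 6 lowered became 1 on either TPM scale or at 0.01, 2 with the replicate block and 3 to 8 with 1 library left out. The leukotriene list had 4 lowered with limma-voom, and 0 raised and 3 lowered at 0.01. The TPM scales moved the median of all genes to 0.35 (pseudocount 1) and 0.40 (0.1), where 2347 of 3210 and 2134 of 3001 called genes were raised, against 2342 of 4619. Against these medians Pla2g4a (1.40 and 1.44) and Ptgis (1.32 and 1.32) stayed above and Ptges (-1.16 and -1.47) below.

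Changes that turned were not called in the fit of all 8 libraries. With 1 library left out, Ptgs1 ranged from -0.030 (without colchicine 4) to 0.27, Ptger3 from -1.02 to 0.23 (without vehicle 3) and Ptges3 from -0.29 to 0.18 (without vehicle 1). Ptger3 stood at 0.11 on log2(TPM + 0.1) and Ptger4 at 0.22 and 0.27 on the TPM scales. Ptges3 stood at 0.066 with no factors, 0.41 and 0.42 on the TPM scales, 0.0066 with the replicate block, 0.45 without vehicle 1 and 4 and 0.31 with the erythroid covariate. The Ptger4 to Ptger3 ratio ranged from -0.31 to 0.58 with 1 library left out and was below 0 without colchicine 2 (-0.03) and without vehicle 3 (-0.31). The causes were not tested.

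Libraries with the same replicate number did not deviate together (correlations of -0.25 to 0.03 over 4 pairs, and 0 of 8 libraries correlated best with their own number), so the replicate block is given only here. With it Ptgis (0.85, adjusted p = 0.0858) did not pass, and the other 4 called members did. Of the other lowered prostanoid genes, Prxl2b (-1.12, adjusted p = 0.0579), Ptgir (-0.84, adjusted p = 0.0869), Ptges2 (-0.57, adjusted p = 0.0778) and Ptger1 (-1.50, adjusted p = 0.0508) did not pass (edgeR with the block). Tbxas1 and Abcc4 did. Depth limits Ptgds, Ptger2 and Ptger3 most. With 2 vehicle libraries or with pairs, the exact test of a ratio cannot fall under 0.05.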
